A study of Coprinopsis cinerea with 6 samples.

Results

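Among the genes of the mushroom gill, 130 of the 13615 gene models in the count table (0.955%) were both abundant and steady. Each had at least 500 CPM (counts per 1000000 gene-assigned read pairs of a library) in all 6 libraries. In each, the highest library was at most 2 times the lowest. The set was thus selected on the CPM values of all 6 libraries, and its abundance and its narrow range are its definition and not findings. The tissue was the gill of the young fruiting body of Coprinopsis cinerea, the ink cap on which much of the genetics of mushrooms has been worked out, and its RNA was sequenced. The SRR1 mutant gave 3 libraries and the wild type 3; the title of the series connects a transcription factor with spore shape. The labels do not say which lesion the mutant carries, what the strains share, how old the fruiting bodies were, or whether the numbered replicates came from separate fruiting bodies. The p-values below therefore weigh the difference between the genotypes against the spread among these libraries, part of which may be technical.

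Gills are the plates under the cap. They are lined by basidia, which go through meiosis and then bear the spores, and by sterile cells that keep neighbouring plates apart. In eukaryotic cells a small number of genes usually supplies a large part of the messenger RNA, and such genes commonly serve translation, energy metabolism and the cytoskeleton. The deposited identifiers are not paired with gene names (0 of 13615 matched the reference table used here), so no such role is assigned to any gene described here. Markers of gill cell types and SRR1 itself were not checked for the same reason. Genes are given by position on the scaffolds as the authors' table names them; the sources used here name no genome build.

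The 6 libraries held 18333896, 20014106 and 19306843 gene-assigned read pairs in mutant replicates 1, 2 and 3, and 24373334, 19008671 and 18816585 in wild type replicates 1, 2 and 3. At that depth counting error was small even for the lowest level in the set, 503 CPM in mutant replicate 3. Of 1197 genes that passed the edgeR test between the genotypes, 817 were lower in the mutant and 380 higher. This balance depended on the scaling, with 707 lower and 667 higher under upper quartile factors and 628 lower and 1041 higher under library sizes only. With 1 library left out, 480 to 1157 genes were lower and 53 to 739 higher. The wild type libraries were less alike than the mutant libraries, which bears on every spread given below.

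The steady abundant genes supplied a similar share of the transcript reads of the gill in either genotype. Their share of gene-assigned read pairs was 20.2%, 19.7% and 19.5% in mutant replicates 1, 2 and 3, against 21.0%, 19.4% and 20.7% in wild type replicates 1, 2 and 3. The means were 19.8% ± 0.362 in the mutant and 20.4% ± 0.840 in the wild type (SD, n = 3 each), and the ranges of the groups overlapped. The rule used these same values and held each gene to a 2-fold range. The likeness of the shares is therefore largely set by the rule and is given as a description. The sum was itself uneven over the genes. The 10 genes of highest mean CPM held 33.1% of it. Mean levels lay between 500 and 1000 CPM for 64 genes, between 1000 and 2000 CPM for 46, between 2000 and 5000 CPM for 15 and above that for 5. The median level over the set was 965.1, 994.9 and 1022 CPM in the mutant libraries, against 971.7, 1026 and 1059 CPM in the wild type libraries. Over all models the medians were 20.7, 21.3 and 21.3 CPM in the mutant and 18, 18 and 16.7 CPM in the wild type. In bulk tissue, fewer cells of a type and less RNA per cell cannot be told apart, for these genes or any other.

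**Figure D1:**
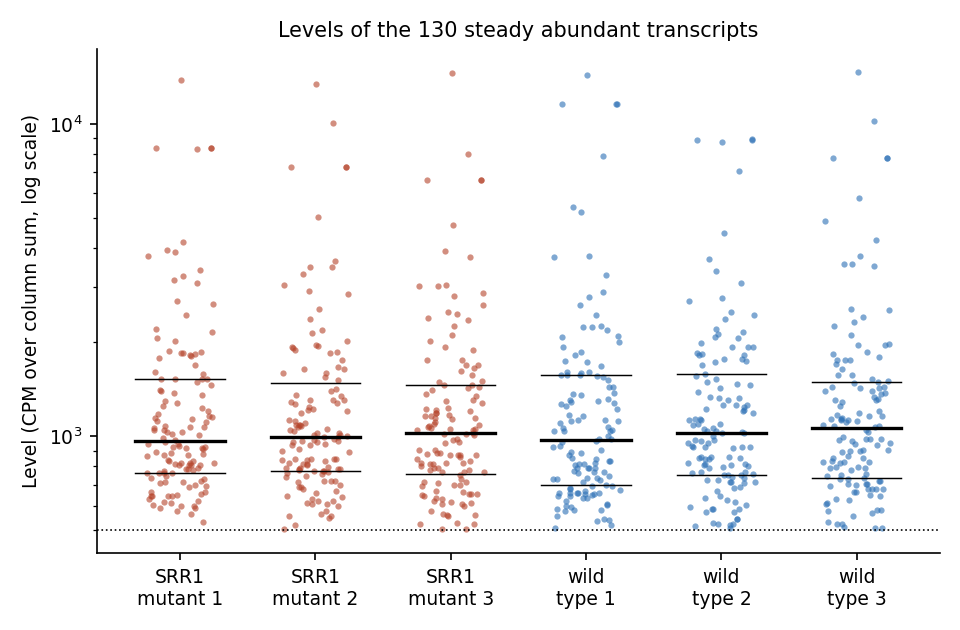
Level of each of the 130 steady abundant genes in the 6 libraries, in CPM on a log axis, with the SRR1 mutant libraries on the left and the wild type libraries on the right. Each point is 1 gene, the thick line is the median, the thin lines are the quartiles and the dotted line is the limit of 500 CPM. The medians of the 6 libraries lie between 965.1 and 1059 CPM.

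Before single genes are described, 6 of the 130 need to be set apart. They lie on small scaffolds, those with fewer than 100 gene models, which hold 122 models in all; the other 124 are among the 13493 models of scaffolds 1 to 13. This grouping was made after the values were seen. In 3 of the 6, on scaffold_16 from 44170 to 44527, on scaffold_19 from 2313 to 2670 and on scaffold_20 from 1943 to 2300, the model has the same 2 coding exons of 117 and 183 bp. Their counts were nearly equal too. Wild type replicate 1, for example, had 282345, 282562 and 282335 read pairs at the 3 models, and no library differed by more than 0.501% between them. The authors' command counted reads that map to several places at each of them, so a pair that fits all 3 models is in the sum 3 times. Their levels are uncertain for that reason. A further pair of models of the 6, on scaffold_16 from 32585 to 32859 and from 46934 to 47211, shares coding exons of 45 and 165 bp, but the second had over 3 times the counts of the first in every library. The sixth lies on scaffold_14 from 103734 to 104322 and has 204 coding bp.

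The 6 models on small scaffolds shared a library profile, though 3 of them have near-equal counts and are not separate observations. Relative to its own mean over the 6 libraries, each stood at 1.33 to 1.42 in wild type replicate 1 and at 0.784 to 0.855 in mutant replicate 3. The other 124 genes had medians between 0.956 and 1.03 in the 6 libraries. Single genes among these 124 ran from 0.739 to 1.34 in wild type replicate 1 and from 0.640 to 1.36 in mutant replicate 3, so their ranges overlapped those of the 6. The 6 models held 3.39%, 2.96% and 2.68% of read pairs in the mutant libraries, against 4.68%, 3.47% and 3.14% in the wild type libraries. Without them, the remaining 124 genes held 16.8% in each of the mutant libraries (SD 0.0125, n = 3), against 16.3%, 15.95% and 17.6% in wild type replicates 1, 2 and 3. The mutant value lay inside the wild type range. With the 3 near-equal models counted as 1, the set held 18.3% ± 0.186 in the mutant and 18.5% ± 0.773 in the wild type (SD, n = 3 each). The mutant libraries were therefore closer to each other in this share than the wild type libraries, with or without these models.

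**Figure D2:**
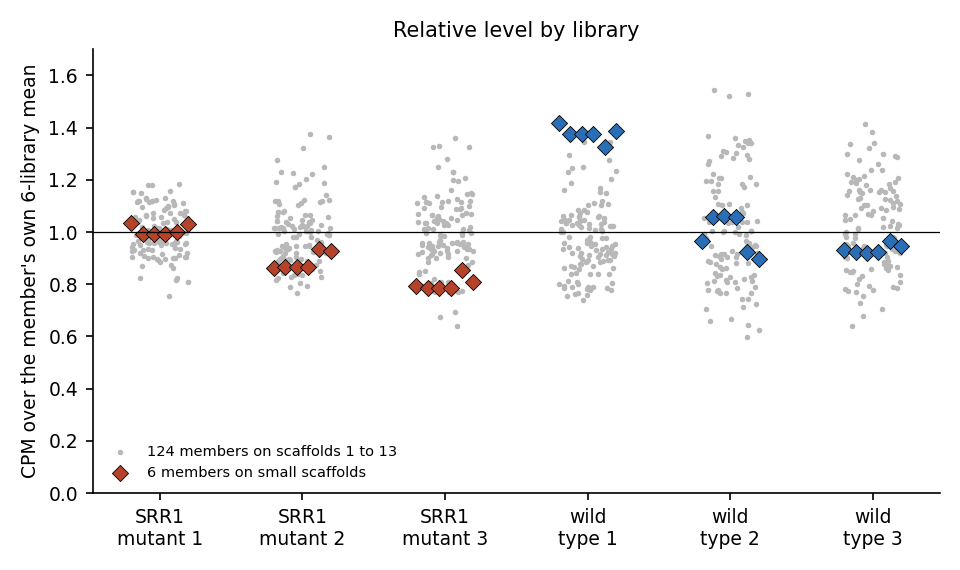
Level of each gene in each library divided by the gene's own mean over the 6 libraries, with the SRR1 mutant libraries on the left. Diamonds are the 6 models on small scaffolds and grey points the other 124 genes; the diamonds lie between 1.33 and 1.42 in wild type replicate 1 and at or below 1.07 elsewhere.

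Levels of different genes can be compared only per length, so they are also given as TPM (counts per coding bp, scaled to a sum of 1000000 in each library). On that scale the 130 genes spread from 52.3 to 31561.7 TPM in their 6-library means, with 50 genes above 1000 TPM and 38 below 500 TPM. The longest coding sequences had the lowest values: across the 130 genes Spearman's rho of coding length with mean TPM was -0.867 and Pearson's r of the log2 values was -0.856. Much of this relation follows from a limit set on CPM, which a long gene reaches with fewer transcripts, and it is given as a description. The command set no minimum overlap with a coding exon. Pairs that reach a very short coding sequence from its untranslated ends count in full, which makes the TPM of the shortest models the least certain.

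The highest level per length belonged to a gene of 342 coding bp in 4 exons on the plus strand of scaffold_2, from 1340987 to 1341505. It had 32598, 31736 and 33897 TPM in mutant replicates 1, 2 and 3, against 34721, 22479 and 33939 TPM in the wild type replicates. Wild type replicate 2 stood below the other 5 libraries, which lay close together, and the groups overlapped. As CPM it had 13764, 13425 and 14511 in the mutant, against 14357.5, 8754 and 14636 in the wild type. The next places went to the 3 near-equal models, which averaged 19935, 19923 and 19920 TPM in the mutant and 26206, 26156 and 26154 TPM in the wild type. The model on scaffold_14 had 13552 ± 1963 TPM in the mutant and 17250 ± 4225 TPM in the wild type (SD, n = 3 each), and the second model of the pair on scaffold_16 had 13336 ± 1704 and 16049 ± 3919 TPM in the same order of groups. In all 5 of these small-scaffold models the group ranges overlapped.

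The seventh place was held by the shortest coding sequence of the set, 93 bp in 3 exons on scaffold_7 from 1159323 to 1159517. Its level was 12036 ± 974 TPM in the mutant and 10252 ± 1724 TPM in the wild type (SD, n = 3 each). A gene of 321 coding bp on the minus strand of scaffold_10, from 1048900 to 1049270, followed. It had 7970, 7333 and 9729 TPM in the mutant libraries, against 6772, 5685 and 6310 TPM in the wild type libraries. On this scale every mutant library stood above every wild type library, but the separation depended on the scaling, as described below. The last of the 10 highest were both on the minus strand of scaffold_11. One, from 1430647 to 1431106 with 336 coding bp, had 6886 ± 862 TPM in the mutant and 7313 ± 1410 TPM in the wild type. The other, from 2155493 to 2156104 with 426 coding bp, had 6211 ± 853 TPM in the mutant and 7304 ± 1750 TPM in the wild type (SD, n = 3 each). Both overlapped between the groups and had wild type replicate 3 as their highest library. All 10 of these genes had at most 426 coding bp, although levels per length go up as length goes down under a limit on CPM.

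At the other end, the longest coding sequence of the set, 11823 bp in 19 exons on the minus strand of scaffold_3 from 1264119 to 1276906, had the lowest level per length. It had 57.5, 55.6 and 53.7 TPM in the mutant libraries, against 54.0, 59.0 and 34.4 TPM in the wild type libraries. Wild type replicate 3 lay apart below the other libraries, which were close together. The next longest were a gene of 4428 coding bp in 6 exons on scaffold_4 from 1466060 to 1470753 and a gene of 4098 coding bp in 10 exons on scaffold_11 from 749337 to 754049. They averaged 125.3 ± 10.7 and 165.8 ± 42.8 TPM in the mutant and 132.0 ± 34.0 and 205.7 ± 46.9 TPM in the wild type (SD, n = 3 each).

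Steadiness was common among abundant genes. Of 157 models with at least 500 CPM in every library, 130 (82.8%) kept within the 2-fold range, and of 2982 models with 50 to 500 CPM in their lowest library, 2295 (77.0%) did. Within the set the ratio of highest to lowest library ran from 1.16 to 1.96 with a median of 1.52. It was at most 1.5 for 59 genes and above 1.5 for 71. The limit of 2 thus falls within a continuous range and not in a gap. The genes just inside it had ratios of 1.92, 1.95 and 1.96, and those just outside had 2.02, 2.04 and 2.06. At the level limit, the lowest libraries of the nearest genes inside were at 503.0, 503.7 and 503.8 CPM and those of the nearest steady genes outside at 490.7, 492.4 and 496.3 CPM.

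**Figure D3:**
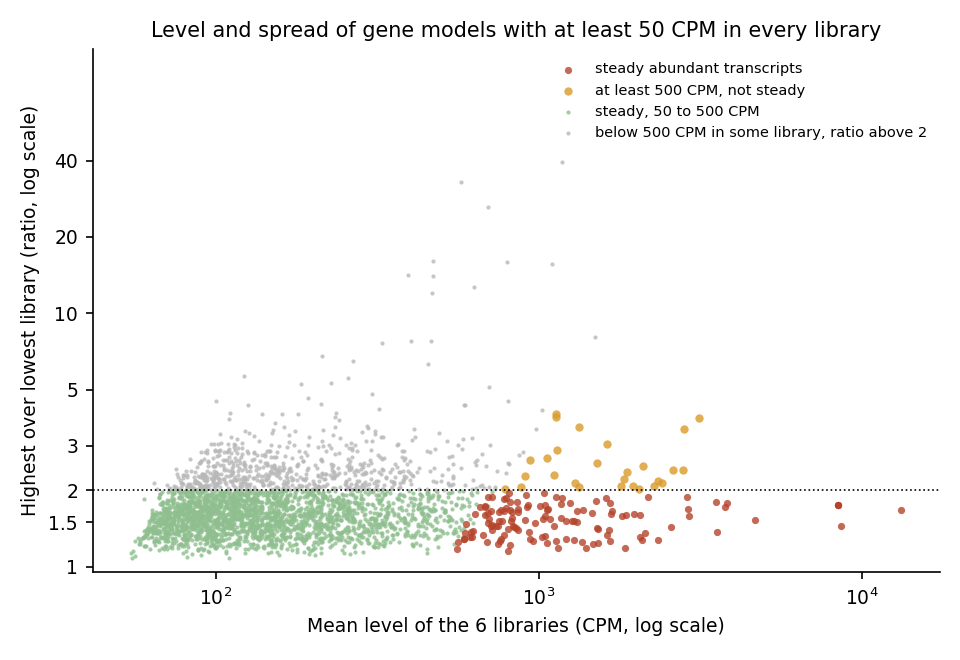
Mean level of the 6 libraries in CPM against the ratio of the highest to the lowest library, both on log axes, for the 3139 gene models with at least 50 CPM in every library. The 130 steady abundant genes lie below the dotted line at a ratio of 2, the 27 genes that are as abundant but not steady lie above it with ratios from 2.02, and no gap separates them.

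The steadiest gene lay on the plus strand of scaffold_9 from 1773847 to 1775493, with 1326 coding bp in 7 exons. It had 763.8, 841.8 and 846.6 CPM in mutant replicates 1, 2 and 3, against 731.5, 820.5 and 824.9 CPM in wild type replicates 1, 2 and 3. In both groups the library numbered 1 was the lowest and the others were nearly equal. The second, on scaffold_6 from 729372 to 731718 with 1956 coding bp, had 591.1, 557.3 and 503.0 CPM in the mutant, against 579.9, 541.9 and 566.4 CPM in the wild type. It is also the gene nearest to the level limit. The third, on the same scaffold from 1275359 to 1277428 with 1623 coding bp, had 1892 ± 120 CPM in the mutant and 1813 ± 154 CPM in the wild type (SD, n = 3 each). All 3 had several exons (7, 8 and 8) and overlapping groups.

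The least steady genes that still met the limit each had 1 library that stood apart. A gene of 11 coding exons on scaffold_7 from 2328743 to 2330883 had 806.9, 993.3 and 752.7 CPM in the mutant, against 818.9, 507.5 and 981.1 CPM in the wild type. The low library was wild type replicate 2. The only gene of the set with a single coding exon, 1344 bp on scaffold_8 from 1521226 to 1522569, had 1139, 1058 and 665.2 CPM in the mutant, against 1298, 914.3 and 1164 CPM in the wild type. Here mutant replicate 3 was low. A model on scaffold_5 from 2751313 to 2752656 has an exon of the same length, but was read at no more than 6.35 CPM in any library. A gene on scaffold_1 from 3936157 to 3937775, with 4 exons, had 1016, 840.4 and 769.9 CPM in the mutant, against 1125, 586.4 and 1125 CPM in the wild type, again with wild type replicate 2 the lowest.

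Within a genotype, the wild type libraries of the set ranged more widely than the mutant libraries. The median ratio of highest to lowest library was 1.18 within the mutant and 1.39 within the wild type, and the wild type range was the wider one for 97 of the 130 genes (74.6%). This was no mark of the set. Among the 3139 models with at least 50 CPM in every library the same medians were 1.19 and 1.42, with the wider range in the wild type for 79.9%. For 49 genes the highest and the lowest of the 6 libraries were both wild type, and for 10 both were mutant. The highest was a mutant library and the lowest a wild type library for 36 genes, with the reverse for 35. Wild type replicate 2 was the highest library of 34 genes and the lowest of 34 others, so that it formed 1 end of the range for 68 of the 130.

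Library deviations in the set followed coding length weakly. Spearman's rho of coding length with a library's log2 deviation from the gene's own mean was -0.105, 0.110 and -0.201 in mutant replicates 1, 2 and 3, against 0.149, 0.201 and -0.151 in wild type replicates 1, 2 and 3 (across 130 genes, which share the libraries and are not independent replicates). Over the 11683 tested genes it was 0.0111, -0.125 and -0.141 in the mutant and 0.204, 0.248 and -0.209 in the wild type. The sign differed between the set and all tested genes in mutant replicates 1 and 2 and was the same in the other 4 libraries. In wild type replicate 2 the 29 genes of at most 600 coding bp stood 0.101 below their own means in the median (log2) and the 27 genes above 1800 bp stood 0.0924 above.

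Between the genotypes the steady abundant genes differed little, and with composition-corrected scaling most stood slightly lower in the mutant. The log2 fold change in edgeR (mutant over wild type, TMM factors) had a median of -0.227 with quartiles at -0.350 and -0.104, and ran from -0.826 to 0.408. It was below 0 for 112 genes and above 0 for 18, and within 0.5 of 0 for 121. The median over all 11683 tested genes was 0.0140. The sizes depend on the scaling. When only library sizes were used, the median was 0.206 over all genes and -0.0279 over the set, with 70 genes of the set below 0 and 60 above; 42 genes were below 0 with TMM factors and above 0 with library sizes. A change of scaling moves all genes by nearly the same amount, so it can say little about the place of the set among them. With TMM factors the median of the set lay 0.241 below that of all tested genes, and 114 of the 130 genes lay below it. Single libraries moved this gap: the set lay 0.165 below without wild type replicate 3 and 0.290 below without wild type replicate 2. The medians of the set itself were -0.139 and -0.299 in these fits. The rule allowed only 2-fold differences over these same libraries, so these values are a description and carry no test.

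**Figure D4:**
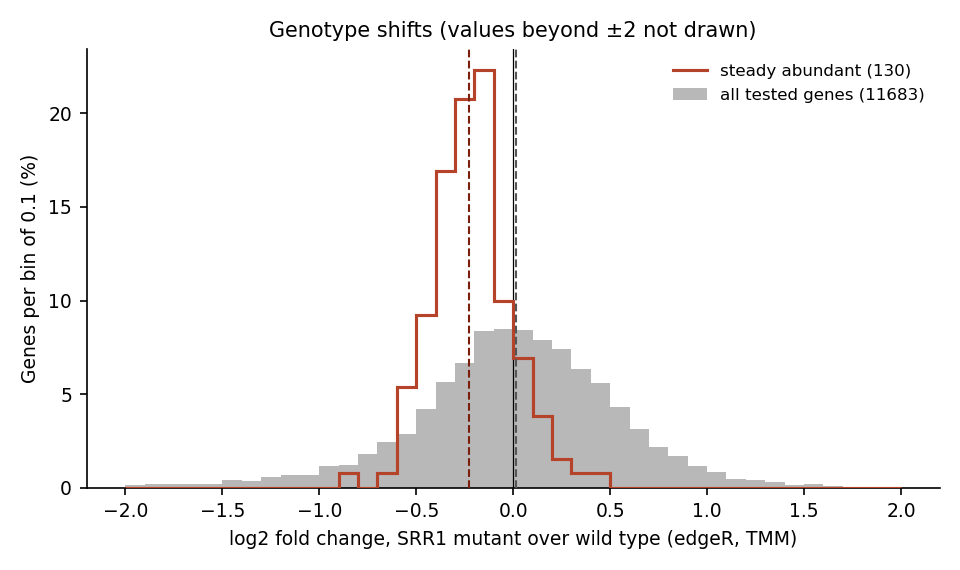
Distribution of the edgeR log2 fold change, SRR1 mutant over wild type with TMM factors, in bins of 0.1, as percent of the 130 steady abundant genes (red outline) and of the 11683 tested genes (grey). Dashed lines mark the medians, -0.227 for the set and 0.0140 for all tested genes; with library sizes alone these medians are -0.0279 and 0.206.

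Neighbouring sets of genes had negative medians too. The 27 models with at least 500 CPM in every library that were not steady had a median log2 fold change of -0.238, with 14 below 0 and 13 above. The 2295 steady models of 50 to 500 CPM had a median of -0.118, with 65.3% below 0. The genes of the set differed little in their shift by length: the median was -0.238 for the 29 genes of at most 600 coding bp, -0.204 for the 74 between and -0.279 for the 27 above 1800 bp. By exon number it was -0.349 for the 24 genes of 1 to 3 coding exons, -0.222 for 50 genes of 4 to 6, -0.136 for 25 genes of 7 to 9 and -0.225 for 31 genes of 10 or more. The 6 small-scaffold models are all in the class of fewest exons, and 2 of the 5 genes with the most negative shifts are among them.

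Of the 130 genes, 1 was called lower in the mutant and 0 were called higher (two-sided edgeR quasi-likelihood test of 3 libraries against 3, adjusted over all tested genes after Benjamini and Hochberg). At an unadjusted p under 0.05 in the same test there were 10 lower and 1 higher, beside 1609 lower and 1469 higher of the 11683 tested genes. Of all tested genes 6.99% were called lower and 3.25% higher, 10.2% in all. Of the 2295 steady models of 50 to 500 CPM, 82 were called lower and 2 higher. Of the 27 abundant models that were not steady, 5 were called lower and 1 higher. How far the rule limited the calls was not tested. DESeq2 called 4 lower and 0 higher, and limma-voom 1 lower and 0 higher. Over all tested genes DESeq2 called 1089 lower and 586 higher, and limma-voom 791 lower and 389 higher. As CPM over column sums, every mutant library was below every wild type library for 8 genes of the set (9.54% of all tested genes) and above for 11 (28.7% of all tested genes), and the groups overlapped for 111. On TMM-scaled CPM these were 32, 3 and 95 genes, beside 15.7% of all tested genes below and 17.5% above. Nothing is read from these counts, because the rule used the same libraries.

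The gene called lower was CopciAB_359649.T0, on the minus strand of scaffold_5 (618 coding bp, 4 exons) from 2108275 to 2109062. It had 598.5, 656.1 and 613.9 CPM in the mutant libraries, against 736.5, 1026 and 1120 CPM in the wild type libraries. The mutant libraries lay close together below all of the wild type libraries, of which replicate 1 was nearest to them. Its log2 fold change was -0.83 ± 0.22 SE (edgeR adjusted p = 0.036). The call was lost without any 1 of the mutant libraries (log2 fold change -0.89 to -0.83, adjusted p = 0.122 to 0.141), without wild type replicate 3 (adjusted p = 0.0611), with upper quartile factors (0.0537) and with library sizes alone (0.0654). The next was CopciAB_23471.T0, on the minus strand of scaffold_10 (2004 coding bp, 6 exons) from 1473977 to 1476266. It had 1821, 1550 and 1612 CPM in the mutant, against 2448, 2501 and 1857 CPM in the wild type, without overlap (log2 fold change -0.64 with SE 0.20, adjusted p = 0.0706 in edgeR). DESeq2 called it (adjusted p = 0.00527), as did edgeR without wild type replicate 3 (log2 fold change -0.73, adjusted p = 0.0393). Its adjusted p was 0.0534 to 0.261 in the other alternatives.

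The other genes with the most negative shifts did not pass the test. A gene of 1281 coding bp on scaffold_10 from 399280 to 400726 had 646.0, 611.2 and 563.6 CPM in the mutant, against 656.8, 1060 and 626.4 CPM in the wild type. Only wild type replicate 2 stood apart there, and the groups overlapped (log2 fold change -0.55 with SE 0.22, adjusted p = 0.147 in edgeR). The remaining places were held by the near-equal models on scaffold_19 and scaffold_20, each with a log2 fold change of -0.53 ± 0.23 SE and an adjusted p of 0.177 and 0.178 in edgeR.

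Among the genes that stood higher in the mutant, the largest shift was that of CopciAB_381793.T0, with 333 coding bp in 4 exons on the minus strand of scaffold_6 from 946398 to 946878. It had 927.2, 1011 and 1058 CPM in the mutant libraries, against 667.3, 643.4 and 661.8 CPM in the wild type libraries. The groups were well separated and the wild type libraries nearly equal (SD 12.5 CPM). Its log2 fold change was 0.41 ± 0.18 SE (edgeR adjusted p = 0.177), and with library sizes alone it was 0.60 and passed (adjusted p = 0.0445). CopciAB_442066.T0, with 1251 coding bp in 8 exons on the plus strand of scaffold_2 from 2230598 to 2232233, had 662.8, 784.7 and 872.8 CPM in the mutant, against 520.8, 603.8 and 508.3 CPM in the wild type (log2 fold change 0.32 with SE 0.19, adjusted p = 0.313 in edgeR). The other 3 were the gene on scaffold_10 from 1048900 to 1049270 described above for its level, a gene on scaffold_2 from 1806412 to 1808018 and a gene on scaffold_8 from 633781 to 634517. Their log2 fold changes were 0.26, 0.21 and 0.20, and in all 5 genes every mutant library was above every wild type library on CPM over column sums. The same held for 28.7% of all tested genes. On TMM-scaled CPM it held for only 3 of the 130 genes, and the groups of the gene on scaffold_10 overlapped. None of the 5 passed the test with TMM factors.

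The coding sequences of the set were of ordinary length but divided into more exons than those of the average gene model. The median coding length was 1134 bp (quartiles 628.5 and 1636.5), against 1113 bp over all models (621 and 1725). The median number of coding exons was 6 (quartiles 4 and 9), against 4 over all models (2 and 7). One gene of the 130 had a single coding exon (0.769%), against 12.7% of all models, and 31 had 10 or more (23.8%), against 15.5% of all models. There were 4.75 introns per coding kb in the median, against 3.17 over all models. Only introns between coding exons can be seen in the table, since it holds no untranslated regions.

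The comparison with other abundant or steady genes gave a different picture by measure. The 2295 steady models of 50 to 500 CPM also had a median of 6 coding exons, with 2.57% single-exon models and 26.5% of 10 or more exons, but they were longer, with a median of 1500 bp and 3.87 introns per coding kb. The 27 abundant models that were not steady had a median of 5 exons, 1098 bp and 4.48 introns per coding kb, near the 4.75 of the set. Among them 0 of 27 were single-exon models and 2 of 27 had 10 or more exons (7.41%). The length of the set depends on how level is counted. With TPM in place of CPM in the same rule, 156 genes qualified, 77 of them from the set, and their medians were 466.5 bp and 4 exons. The exon count of the set hardly depended on the 6 small-scaffold models, which have 2 exons each: the median without them was 6 exons and 1194 bp. No test is given for these comparisons.

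**Figure D5:**
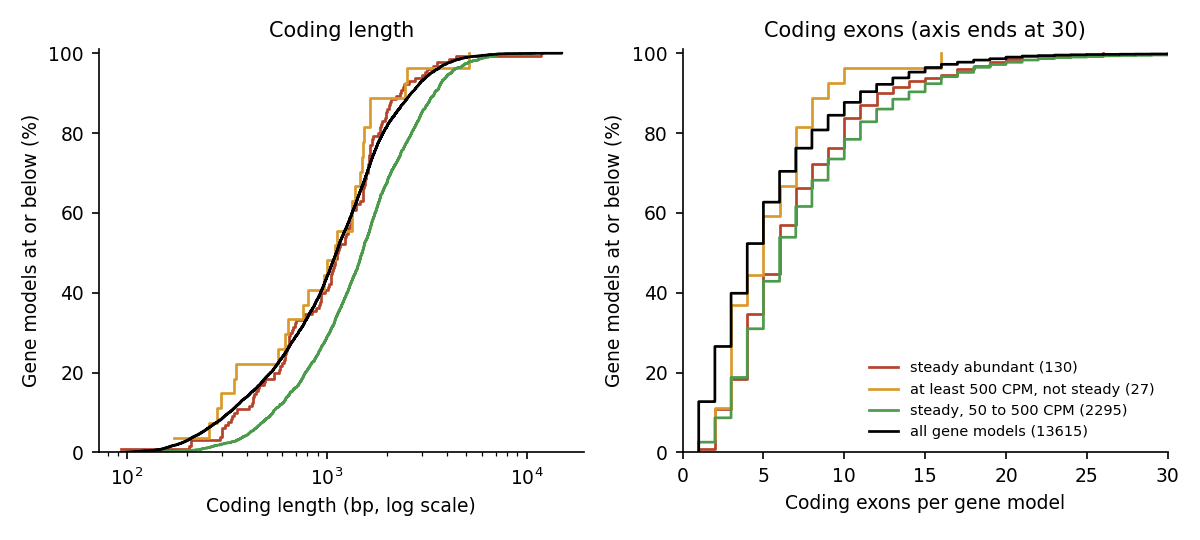
Cumulative percent of gene models by coding length in bp (left, log axis) and by number of coding exons (right, axis ends at 30), for the steady abundant genes and 3 comparison sets. The set follows all gene models in length, with medians of 1134 and 1113 bp, and lies to the right of them in exon number, with medians of 6 and 4.

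Exon number and level per length ran opposite ways within the set. The 24 genes of 1 to 3 coding exons had a median length of 454.5 bp and a median level of 2553 TPM, and the 50 genes of 4 to 6 exons had 910.5 bp and 973.5 TPM. The 25 genes of 7 to 9 exons had 1299 bp and 561.9 TPM, and the 31 genes of 10 or more had 1809 bp and 468.4 TPM. As CPM the medians of the 4 classes, from fewest to most exons, were 1312, 1002, 850.3 and 860.9. Longer genes had more exons (Spearman's rho 0.635 across 130 genes, a description). The order by exon number was not separated from the order by length.

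The gene with the most coding exons had 26, in 3579 coding bp on the minus strand of scaffold_6 from 890441 to 895413. It was also among the steadier genes, with 2015, 2377 and 1935 CPM in the mutant libraries, against 1863, 2201 and 2108 CPM in the wild type libraries. The groups overlapped widely. A gene on scaffold_11 (minus strand, 21 exons, 3390 coding bp) from 1344190 to 1350876 had 1857, 1415 and 1565 CPM in the mutant, against 2185, 1771 and 1319 CPM in the wild type. A gene on scaffold_13 (minus strand, 20 exons, 2316 coding bp) from 1021697 to 1025124 had 625.5 ± 140.7 CPM in the mutant and 740.0 ± 145.2 CPM in the wild type (SD, n = 3 each). Overlapping groups were seen in all 3.

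The introns of the set were as short as those of other genes. The 780 introns between coding exons had a median length of 56 bp (quartiles 53 and 62), and the 61468 introns of all models had the same median (quartiles 52 and 62). Introns longer than 200 bp numbered 15 (1.92%), against 1.54% of all introns. The longest, of 2428 bp, lay in a gene on the plus strand of scaffold_10 from 2155833 to 2160316, in which 1632 coding bp are split into 4 exons and the first coding exon has only 7 bp. Another, of 1354 bp, lay in the gene of 21 exons on scaffold_11, which also held one of 532 bp. A gene on scaffold_3 from 3601400 to 3604847 held introns of 894 and 814 bp, and a gene on scaffold_10 from 560962 to 564143 held one of 1215 bp. A first coding exon of at most 10 bp was found in 4 genes of the set (3.08%), against 2.93% of all models.

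One pair of genes on the larger scaffolds shared all exon lengths. The models on scaffold_2 from 3330265 to 3331554 and on scaffold_8 from 1242250 to 1243519 both have 5 coding exons of 145, 363, 86, 408 and 45 bp in the direction of transcription. Their levels were distinct. The first had 2658, 2857 and 2868 CPM in the mutant, against 1996, 2448 and 2544 CPM in the wild type, and the second had 916.0, 756.9 and 980.1 CPM in the mutant, against 646.4, 751.8 and 853.9 CPM in the wild type. For the first gene every mutant library was above every wild type library on CPM over column sums, as for 28.7% of all tested genes. On TMM-scaled CPM its groups overlapped. For the second gene the groups overlapped on CPM over column sums. Since reads mapping to several places were counted, a part of the counts of either may belong to the other, and both values are uncertain.

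The genes of the set were scattered over the genome. Members lay on all 13 of the larger scaffolds, with the most on scaffold_2 and scaffold_7 (16 each). As a share of the models on a scaffold they ran from 0.414% on scaffold_12 (3 of 725) to 1.62% on scaffold_11 (12 of 743), with 1.55% on scaffold_7 and 1.49% on scaffold_10. On scaffold_16, 3 of 18 models belonged to the set. The median distance from a gene of the set to the nearest other one was 86692 bp, and 26 genes had another within 20000 bp. Of the 130 genes, 60 lay on the plus strand (46.2%), against 50.6% of all models.

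In 3 places members of the set were direct neighbours, and no run was longer than a pair. On scaffold_11 the gene of 21 exons and a gene from 1351255 to 1353667 lie head to head, with 378 bp between their coding sequences. The second gene had 1391, 1088 and 1164 CPM in the mutant, against 1573, 1827 and 1173 CPM in the wild type, and the log2 fold changes of the pair were -0.31 and -0.51. On scaffold_10 the gene with the intron of 1215 bp and a gene from 565663 to 568133 are also head to head, 1519 bp apart, with log2 fold changes of -0.26 each. The third pair, on scaffold_16, is made of 2 small-scaffold models on the same strand, 2406 bp apart. None of these genes passed the edgeR test.

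Distances to neighbouring models depended on which genes the set was compared with. The distance from the start of the coding sequence to the nearest upstream model had a median of 675.5 bp (quartiles 382.8 and 1142), against 644 bp over all models (330 and 1208), and downstream the medians were 632 and 532.5 bp. The upstream neighbour was transcribed away from the gene, head to head, for 52 of 128 genes with such a neighbour (40.6%), against 51.9% over all models. Among the steady models of 50 to 500 CPM the upstream and downstream medians were 451 and 462 bp, and 54.9% had a head-to-head upstream neighbour. Of the 3232 neighbours outside that group, 20.9% averaged at least 50 CPM. Neighbours inside it, which all average at least 50 CPM, are not in this share, so it is not comparable with that over all models. Among the 27 abundant models that were not steady the upstream and downstream medians were 630 and 387 bp, and 37.0% had a head-to-head upstream neighbour. Their neighbours had a median level of 49.1 CPM, and 48.1% averaged at least 50 CPM. No gene of the set overlapped an adjacent coding model. Overlap with the untranslated regions of a neighbour cannot be seen here, and its effect on the counts was not tested. The 249 neighbours that were not in the set had a median level of 26.6 CPM, and 96 of them (38.6%) averaged at least 50 CPM, against 20.2 CPM and 31.2% over all models that have a neighbour. These are descriptions of position and carry no test.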

How the data were processed

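The authors deposited 1 table of raw counts of read pairs per gene model. The submitters' processing notes name STAR 2.6.1 as aligner. Per the file headers, counting was by featureCounts 2.0.1. The command counted pairs over coding exons with 1 transcript per gene, a minimum fragment length of 40 bp, multi-mapping reads included and no strand option. It lists 7 alignment files for 6 count columns; wild type replicate 3 is listed in 2 files, of which the table holds 1. All 13615 coding lengths are multiples of 3, so they exclude untranslated regions. Sample descriptions gave each column its sample, and titles gave the groups.

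CPM used the column sums and TPM the coding lengths, with no pseudocount. The set was taken by the rule given in the text. Genotypes were compared in R 4.3.3 by the quasi-likelihood test of edgeR 4.0.16 with TMM factors and the default filter, which kept 11683 genes and all 130 members. Calls are at 0.05 after Benjamini-Hochberg adjustment. The SE of a shift is the absolute log2 fold change over the square root of F. Every pair of libraries differed by more than counting error. Alternatives were DESeq2 1.42.0, limma-voom (limma 3.58.1), library sizes alone, upper quartile or RLE factors, other filters, robust estimation, a replicate block, each library left out, and other limits in the rule. Removal of a trend with coding length, counting the near-equal models once and leaving out small scaffolds were added after seeing the data. Descriptions were made in Python 3.11.15. The members and lists were chosen with earlier results of these data known. Genes were named by fixed rules: the 10 highest mean TPM, the extremes of ratio, coding length and exon number, those nearest the limits, the 5 largest shifts in each direction and neighbouring members; identifiers are printed for 2 genes in each direction. Genes named for intron length or shared exon lengths were chosen after their values were seen. The planned lists of gene functions were not run, since identifiers are not paired with names.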

Additional observations from a re-analysis of the deposited data

How the results depend on the processing

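The number of genes in the set followed the limits. It was 305 at 300 CPM (28.3% of read pairs in the mutant and 28.5% in the wild type), 48 at 1000 CPM (13% and 13.5%) and 59 at a ratio of 1.5 (7.39% and 7.32%). A ratio of 3 gave 151 genes (23.3% and 23.9%), and TPM in place of CPM 156 genes (19.0% and 18.9%) with medians of 466.5 bp and 4 exons. CPM on TMM-scaled library sizes gave 127 genes, 115 of them shared. Counting the near-equal models once left 18.3% and 18.5%, and leaving out small scaffolds 16.8% and 16.6%. With 1 library left out of the rule, 132 to 160 genes qualified, with a median of 1081.5 to 1203 bp and 6 exons, and held 19.7% to 23.7% in the mutant and 20.5% to 24.9% in the wild type; fewer libraries make the rule easier to meet.

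Members called lower numbered 1, but 4 under DESeq2 and 0 under library sizes only, the replicate block or upper quartile factors, and 0 to 1 with 1 library left out; without wild type replicate 3 the 1 was CopciAB_23471.T0 on scaffold_10 in place of the gene on scaffold_5. Members called higher numbered 1 with library sizes only and 0 with 1 library left out. Over all genes, 817 were lower, 480 to 1157 as each library was left out and 628 under library sizes only. The 380 higher genes became 225 under the replicate block, 1041 under library sizes only, 667 under upper quartile factors, 586 under DESeq2 and 53 to 739 as each library was left out. The median log2 fold change of the set ran from -0.299 to -0.139 as each library was left out, and was -0.0279 under library sizes only; the cause was not tested. Under the replicate block the called gene on scaffold_5 had an adjusted p of 0.0555 (edgeR). Same-numbered libraries of the 2 genotypes shared only a number: their deviations correlated at 0.0785, -0.0530 and -0.0368, and only the libraries numbered 1 correlated best with each other. The 5 largest shifts in each direction kept their sign in every alternative run; those of the other genes were not recomputed one by one.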
